A study of Mus musculus with 6 samples.

Results

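The genes described here are 10 genes of the immediate-early response and of feedback on the MAP kinase ERK: *Fos*, *Fosb*, *Jun*, *Junb*, *Atf3*, *Egr1*, *Ier2*, *Dusp1*, *Dusp6* and *Spry4*. They were taken by their symbols, from a list drawn up with earlier results of these data known. All 10 of the 10 were found among the 48440 genes listed for the libraries, and all 10 passed the filter of a mean FPKM of at least 1 that left 14240 genes for testing. FPKM is the number of sequenced fragments per kilobase of gene, scaled to the size of the library, so that levels of different genes can be compared.

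The values came from RNA-seq of small intestinal adenomas of ApcMin mice, which carry a mutant *Apc* allele and form such tumors spontaneously. Of the 6 libraries, 3 were from ApcMin PCdel mice (libraries QC3, QC8 and QC10) and 3 from ApcMin mice (QC4, QC5 and QC6). All 6 samples carried ApcMin on a C57BL/6 background and came from mice older than 42 days. In PCdel mice, the genotype given by the study's methods was Defa4-Cre with Rosa26 iDTA/WT, in which Cre, knocked in at the *Defa4* locus, switches on the diphtheria toxin alpha subunit in Paneth cells, the granule-bearing secretory cells of the crypt base. Littermate controls carried Rosa26 iDTA/WT without Cre, so that both groups had the toxin allele and only PCdel mice had the driver. The Paneth cell markers examined, apart from *Ang4*, had lower means in ApcMin PCdel adenomas but were not absent. Of 7 Paneth cell markers, 7 had lower estimates and 4 were lower at an unadjusted threshold of 0.05 in limma's fit, against 0.681% of all genes tested, and *Lyz1* FPKM ranged from 950.3 to 1148 against 1672 to 2281 in ApcMin adenomas. The means of *Defa21* and *Defa22* in ApcMin PCdel adenomas were 11.6% and 13.5% of those in ApcMin adenomas, and that of *Itln1* was 65.1%. Among markers that did not pass, the mean of *Defa24* was 47.0%, that of *Mmp7* 82.3% and that of *Ang4* 101.1%. *Ang4* ranged from 62.32 FPKM in QC10 to 1173 FPKM in QC8, both ApcMin PCdel libraries. Its estimate was under 0, at -0.347, only on the log2 scale. Near-identical defensin genes may share reads. Epithelial markers were abundant in both groups, with *Krt8* between 1756 and 2711 FPKM, and the Wnt target *Notum* was between 23.9 and 84.9 FPKM.

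One ApcMin library stood apart from the rest over all genes. QC6 held the lowest value of the 6 libraries for 46.0% of the genes tested, and the summed FPKM of 7 enterocyte markers was 24880 there against 9163 to 14840 in the other libraries. Array quality weights gave QC6 a weight of 0.237, the lowest of the 6, against 3.09 for QC5, the highest. Depth was alike in the libraries, between 5.41 and 5.88 gigabases of aligned sequence.

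Immediate-early genes are transcribed within minutes of a stimulus, from factors already present in the cell, and their mRNAs are short-lived. Growth factors acting through ERK, cytokines, mechanical stress and the cutting or warming of tissue can each induce them, so in excised tissue they are also known as marks of handling. Their products are of several kinds: *Fos*, *Fosb*, *Jun* and *Junb* encode subunits of the AP-1 transcription factor, *Atf3*, *Egr1* and *Ier2* encode other regulators of transcription, and *Dusp1*, *Dusp6* and *Spry4* encode inhibitors that return MAP kinase signaling toward its resting state. The question was how far these genes varied between libraries, and whether a difference between the genotypes exceeded that variation. The sources used here do not give the time between death and the storage of each adenoma in RNAlater, so handling and genotype cannot be told apart by design.

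The AP-1 subunit genes ranged from the most abundant of the 10 to one of the least abundant. *Fos*, at chr12:85473890-85477273 of GRCm38, was at 50.4, 76.6 and 69.1 FPKM in ApcMin libraries QC4, QC5 and QC6 and at 75.0, 83.3 and 71.2 FPKM in ApcMin PCdel libraries QC3, QC8 and QC10. The ranges overlapped, and the low value was that of QC4 alone. Mean *Fos* was 65.3 ± 13.5 FPKM in ApcMin and 76.5 ± 6.19 FPKM in ApcMin PCdel adenomas (SD, n = 3 each), and an exact permutation test, two-sided throughout, returned p = 0.3. With 3 libraries against 3, the smallest p this test can give is 0.1. The log2 fold change of FPKM + 1 was 0.24 (SE 0.17, 95% interval -0.17 to 0.65), and it was 0.07 without QC4 and 0.37 without QC5.

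*Fosb* (chr7:19302696-19310051), a partner of Jun proteins like Fos, was far less abundant. It was at 2.09, 1.60 and 1.90 FPKM in ApcMin and at 2.54, 5.29 and 2.67 FPKM in ApcMin PCdel libraries. The groups did not overlap, and QC8 lay well above the other 5 libraries. The means were 1.86 ± 0.245 and 3.50 ± 1.55 FPKM (SD, n = 3 each, exact permutation p = 0.1), with a log2 fold change of 0.60 (SE 0.23, 95% interval 0.04 to 1.16) that was 0.34 without QC8.

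*Jun* (chr4:95049034-95052222) was at 41.1, 38.4 and 32.9 FPKM in ApcMin and at 42.5, 44.4 and 43.1 FPKM in ApcMin PCdel libraries. The groups were separate but close, with a log2 fold change of 0.21 (SE 0.11, 95% interval -0.06 to 0.48) and an exact permutation p of 0.1. The log2 fold change was 0.12 without QC6 and 0.14 with the enterocyte list as a covariate. The span of *Jun* overlaps *Junos* on the other strand, which was at most 1.16 FPKM. Whether the counting used strand is not given in the sources used here. *Junb* (chr8:84976910-84978718) was at 61.4, 72.8 and 60.3 FPKM in ApcMin and at 68.3, 72.6 and 76.5 FPKM in ApcMin PCdel libraries. QC5 lay inside the ApcMin PCdel range, the log2 fold change was 0.16 (SE 0.11, 95% interval -0.11 to 0.44), and the exact permutation p was 0.3. The log2 fold change was 0.25 without QC5 and 0.055 with array quality weights. Both genes differed little between libraries of a genotype.

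Of the other regulators, *Atf3* had the widest spread within genotypes on the log2 scale. *Atf3* (chr1:191170296-191218039) encodes a stress-induced repressor and activator of the ATF/CREB family. Its FPKM was 12.9, 11.2 and 10.5 in ApcMin and 10.7, 33.1 and 19.5 in ApcMin PCdel libraries. QC3 lay within the ApcMin range, whereas QC10 and above all QC8 lay over it. The means were 11.5 ± 1.20 and 21.1 ± 11.3 FPKM (SD, n = 3 each), and the log2 fold change of 0.69 (SE 0.36, 95% interval -0.17 to 1.55, exact permutation p = 0.3) was 0.31 without QC8 and 1.08 without QC3.

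*Egr1* (chr18:34859823-34864984), a zinc finger factor induced by ERK signaling, was at 2.98, 4.69 and 3.74 FPKM in ApcMin and at 5.45, 6.37 and 4.70 FPKM in ApcMin PCdel libraries. The groups touched without crossing, since QC10 at 4.701 FPKM lay just over QC5 at 4.694 FPKM. The means were 3.81 ± 0.857 and 5.51 ± 0.836 FPKM (SD, n = 3 each, exact permutation p = 0.1), and the log2 fold change was 0.44 (SE 0.17, 95% interval 0.05 to 0.84). *Ier2* (chr8:84661331-84662852), which encodes a nuclear protein, was at 35.4, 44.9 and 37.2 FPKM in ApcMin and at 39.1, 41.6 and 44.1 FPKM in ApcMin PCdel libraries. The ApcMin library QC5 was the highest of the 6. The log2 fold change of *Ier2*, 0.09 (SE 0.12, 95% interval -0.20 to 0.38, exact permutation p = 0.5), was the smallest of the 10, and it was 0.022 without QC4, 0.19 without QC5 and -0.023 with array quality weights.

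The 3 inhibitors of MAP kinase signaling had higher means in ApcMin PCdel adenomas. *Dusp1* (chr17:26505590-26508519) encodes a nuclear phosphatase of JNK, p38 and ERK. It was at 7.32, 9.36 and 8.41 FPKM in ApcMin and at 11.4, 19.1 and 13.1 FPKM in ApcMin PCdel libraries. All 3 ApcMin PCdel libraries lay above all 3 ApcMin libraries, and QC8 was the highest. The means were 8.36 ± 1.02 and 14.5 ± 4.01 FPKM (SD, n = 3 each, exact permutation p = 0.1). The log2 fold change of *Dusp1*, 0.71 (SE 0.19, 95% interval 0.24 to 1.17), was the largest of the 10 genes on this scale, and it was 0.51 without QC8. *Fosb* exceeded it with a pseudocount of 0.1, with array quality weights, without QC4 and by the ratio of mean FPKM. *Atf3* exceeded *Dusp1* by that ratio, without QC3, without QC4 and with the heat shock or smooth muscle list as a covariate.

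*Dusp6* (chr10:99263231-99267488) encodes the cytoplasmic phosphatase that is selective for ERK and is itself induced by ERK. It was at 36.4, 38.4 and 28.2 FPKM in ApcMin and at 36.1, 53.0 and 40.2 FPKM in ApcMin PCdel libraries. QC3 lay within the ApcMin range, and QC6 was the lowest library. The log2 fold change was 0.31 (SE 0.18, 95% interval -0.12 to 0.75, exact permutation p = 0.3), and it was 0.16 without QC8, 0.18 without QC6 or with array quality weights, and 0.19 with the enterocyte list as a covariate. *Spry4* (chr18:38586268-38601268), a Sprouty inhibitor of receptor tyrosine kinase signaling, was at 1.68, 2.31 and 1.89 FPKM in ApcMin and at 2.81, 2.90 and 2.09 FPKM in ApcMin PCdel libraries. QC10 fell between QC6 and QC5, and the log2 fold change was 0.28 (SE 0.14, 95% interval -0.06 to 0.62, exact permutation p = 0.2).

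**Figure D1:**
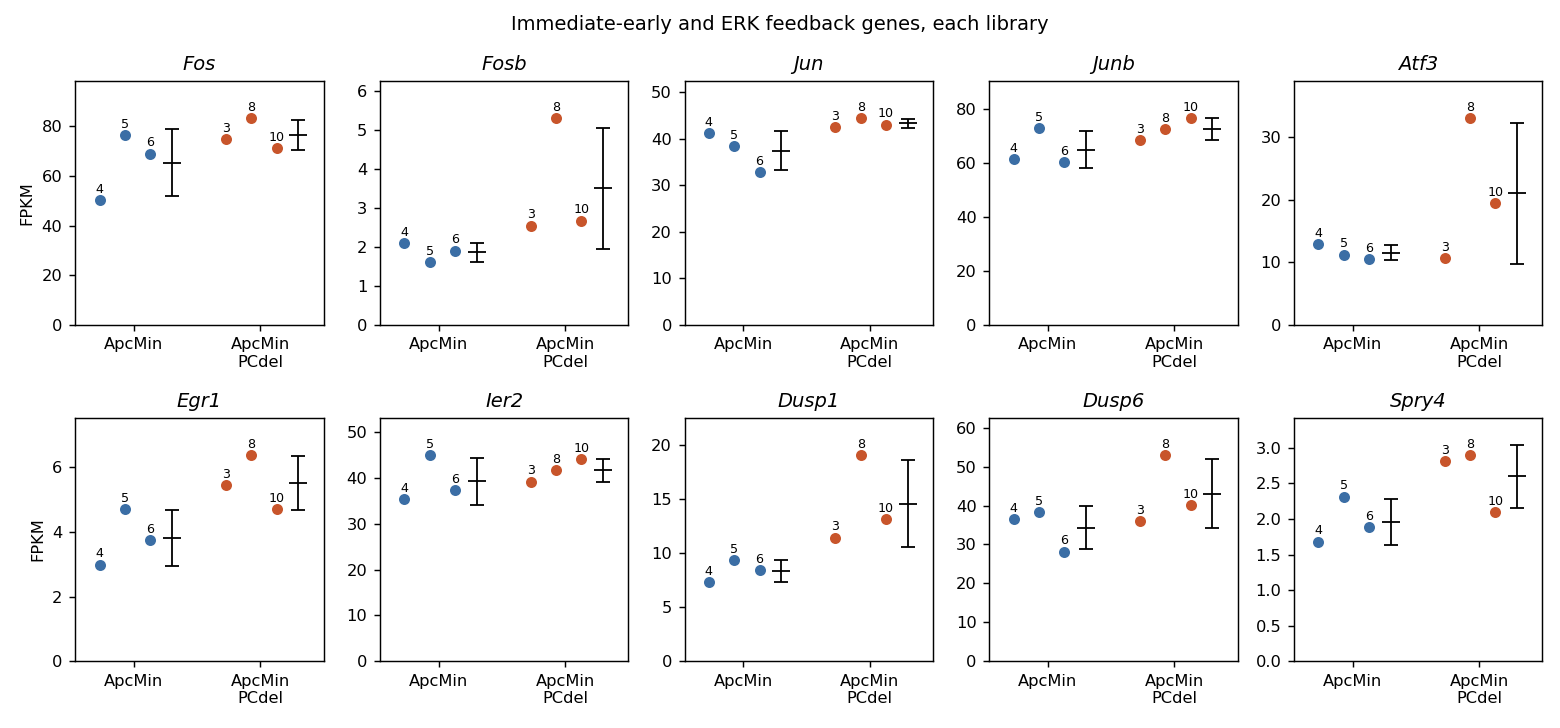
FPKM of the 10 genes, 1 panel per gene with its own axis from 0, with 1 point per library labelled by its QC number (3 ApcMin in blue, 3 ApcMin PCdel in orange) and the mean and SD of each group drawn beside its points. QC8 is the highest point in 8 panels, and *Fosb*, *Jun*, *Egr1* and *Dusp1* have groups that do not overlap.

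No gene of the 10 passed the adjusted threshold. In limma's fit, with p-values adjusted over the 14240 genes tested, each of the 10 had an adjusted p of 1.0, and 2 genes in all, 0.0140% of those tested, were called. At an unadjusted threshold of 0.05, limma counted 3 of the 10 as higher in ApcMin PCdel adenomas (*Fosb*, *Egr1* and *Dusp1*) and 0 as lower, against a background of 2.70% of all genes higher and 0.681% lower. The groups did not overlap for 4 of the 10, *Fosb*, *Jun*, *Egr1* and *Dusp1*, all higher, against a background of 6.00% of all genes higher and 1.54% lower. All 10 estimates were above 0, as were 63.1% of those of all genes, and their median log2 fold change was 0.30 against 0.04 for all genes tested. Without QC6, the library that stood apart, all 10 estimates were still above 0, as were 49.4% of those of all genes, and their median was 0.28. Then 1 gene (*Dusp1*) was higher at the unadjusted threshold, against 3.42% of all genes higher and 2.34% lower. The groups of 4 genes did not overlap, all higher, against 11.4% of all genes higher and 12.3% lower. Without QC8 the median was 0.21, with 1 gene (*Dusp1*) higher at that threshold, against 1.76% of all genes, and 4 higher with separate groups, against 9.34% higher and 3.36% lower. The 10 genes were not independent of each other, since they shared the same 6 libraries and tended to be high or low together in them.

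**Figure D2:**
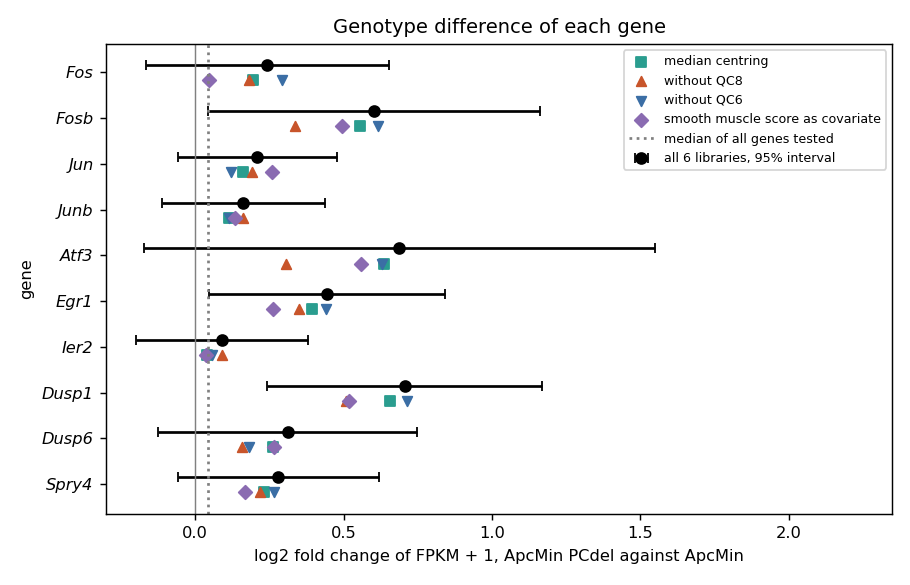
Log2 fold change of FPKM + 1 for each gene, ApcMin PCdel against ApcMin, with positive values higher in ApcMin PCdel. Black circles with bars are estimates from all 6 libraries with 95% intervals, colored symbols are 4 of the alternative fits, and the dotted line is the median of all genes tested, 0.04. The intervals of *Fosb*, *Egr1* and *Dusp1* lie above 0, before any adjustment for the number of genes.

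The division of the variation between and within genotypes differed from gene to gene. The share of each gene's sum of squares that lay between the genotypes was 71.0% for *Dusp1*, 59.5% for *Egr1*, 55.1% for *Jun*, 54.1% for *Fosb* and 50.5% for *Spry4*. It was lower for *Junb* at 41.2%, *Atf3* at 36.5%, *Dusp6* at 35.7%, *Fos* at 29.0% and *Ier2* at 13.7%. The median share was 45.8% for the 10 genes and 9.97% for all genes tested. Thus for 5 of the 10, more of the variation lay among libraries of one genotype than between the genotypes.

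The spread within genotypes was wide for some of these genes and narrow for others. The residual SD on the log2 scale was 0.555 for *Atf3*, larger than that of 94.6% of the genes tested and 3.46 times the value fitted for genes of its level. It was 0.341 for *Fosb* (larger than 84.4% of genes), 0.277 for *Dusp1* (76.6%), 0.257 for *Dusp6* (72.9%), 0.233 for *Fos* (68.0%) and 0.225 for *Egr1* (65.8%). By contrast, *Jun* at 0.116 and *Junb* at 0.119 varied less than the trend for their level, at 0.709 and 0.706 times its value. *Ier2* at 0.139 and *Spry4* at 0.170 were also under it. In all, 6 of the 10 lay above the trend, as did 51.9% of all genes tested. The fold between the highest and the lowest library ran from 1.27 for *Junb* and *Ier2* to 3.14 for *Atf3* and 3.31 for *Fosb*.

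**Figure D3:**
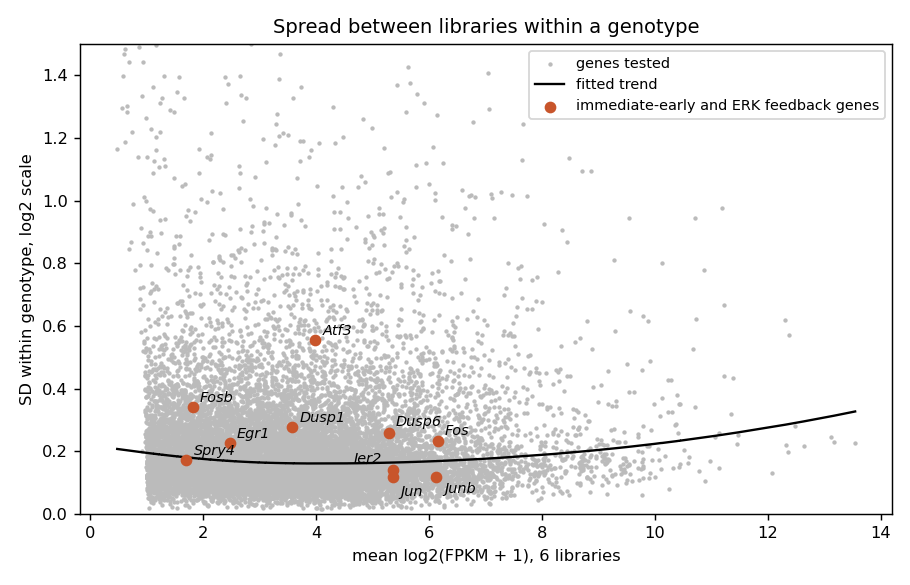
Residual SD within genotype against mean level, both on the log2(FPKM + 1) scale, with 1 gray point per gene tested, the fitted trend as a black line and the 10 genes in orange. *Atf3* at 0.555 lies far above the line, whereas *Jun* and *Junb* lie under it; 72 genes with an SD above 1.5 are outside the plot.

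QC8 stood highest over these genes. The mean log2 deviation of the 10 genes from their means over the 6 libraries was -0.25 in QC4, -0.06 in QC5 and -0.25 in QC6 among ApcMin libraries, and 0.01 in QC3, 0.44 in QC8 and 0.11 in QC10 among ApcMin PCdel libraries. By this mean QC3 and QC8, of one genotype, lay farther apart than QC3 and QC5, of different genotypes. QC8 was the highest library for 8 of the 10 genes, with *Junb* highest in QC10 and *Ier2* in QC5 the exceptions, while QC8 was the highest library for 21.5% of all genes tested. The lowest library was an ApcMin library for all 10 genes: QC4 for 5, QC6 for 4 and QC5 for 1. For all genes tested, the lowest library was an ApcMin library for 66.9%: QC4 for 10.8%, QC6 for 46.0% and QC5 for 10.04%. Summed over the 10 genes, FPKM was 251.7, 300.2 and 254.1 in ApcMin and 293.9, 361.6 and 317.1 in ApcMin PCdel libraries, so that QC5 exceeded QC3.

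**Figure D4:**
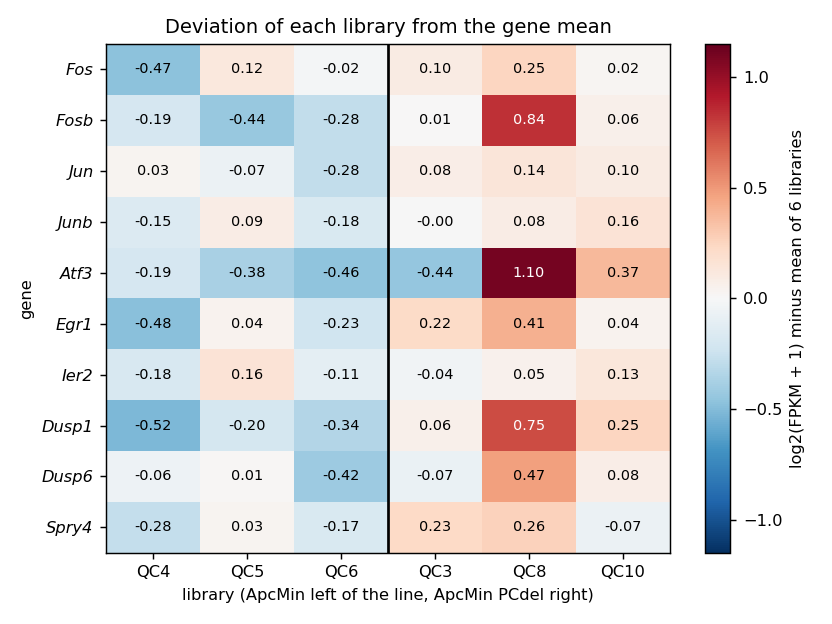
Log2(FPKM + 1) of each gene (rows) in each library (columns) minus the gene's mean over the 6 libraries, with red above and blue under the mean and the value printed in each cell. The QC8 column is above 0 for every gene, up to 1.10 for *Atf3*, and the QC6 column is under 0 for every gene.

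Within each genotype the libraries also differed in a shared direction. QC8 was the highest ApcMin PCdel library for 8 of the 10 genes and QC3 the lowest for 7, and among ApcMin libraries QC5 was the highest for 7. Over the 45 pairs of these genes, Pearson's r across the 6 libraries was positive in all 45, above 0.5 in 34, and 0.64 at the median. The highest was that of *Egr1* with *Spry4*, 0.96, and the lowest that of *Fos* with *Jun*, 0.14. These coefficients describe 6 points that share libraries and genotype, and carry no test. They include the difference between the genotypes, so they do not describe libraries of one genotype alone. No share over all genes was worked out for them or for the counts within genotypes.

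Ordered by mean FPKM over the 6 libraries, the levels were *Fos* 70.9, *Junb* 68.6, *Ier2* 40.4, *Jun* 40.4, *Dusp6* 38.7, *Atf3* 16.3, *Dusp1* 11.5, *Egr1* 4.66, *Fosb* 2.68 and *Spry4* 2.28. Among neighbors in this order, the ranges of the libraries were separate only between *Junb* and *Ier2* and between *Dusp1* and *Egr1*. *Fos* exceeded *Junb* in 4 of 6 libraries, *Ier2* exceeded *Jun* in 3, and *Fosb* exceeded *Spry4* in 4. Of the AP-1 genes, *Fos* and *Junb* stood at its head and *Fosb* near its foot.

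The promoters of 4 genes are given for the binding site of CREB and ATF factors, through which several immediate-early genes are known to be induced. *Dusp1* and *Fosb* had groups that did not overlap, *Fos* was the most abundant and *Atf3* had the widest spread within genotypes. Each run is the 250 bases before the RefSeq start site on GRCm38.p6, read 5′ to 3′ on the gene's strand. Capitals mark the short site TGACG on either strand (CGTCA where it lies on the other strand), the full site TGACGTCA, which holds overlapping short sites, and TATAAA on the gene's strand. The windows are chr17:26508473-26508722 (minus strand) for *Dusp1*, chr12:85473640-85473889 (plus strand) for *Fos*, chr7:19310046-19310295 (minus strand) for *Fosb* and chr1:191183334-191183583 (minus strand) for *Atf3*. The RefSeq start sites of *Dusp1*, *Fosb* and *Atf3* lie inside the spans given above for these genes.
Dusp1: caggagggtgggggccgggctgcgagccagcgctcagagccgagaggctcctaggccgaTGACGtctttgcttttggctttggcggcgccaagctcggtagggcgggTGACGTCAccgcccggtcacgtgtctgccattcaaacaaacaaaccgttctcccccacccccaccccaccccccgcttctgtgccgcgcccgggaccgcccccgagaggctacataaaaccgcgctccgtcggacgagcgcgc
Fos: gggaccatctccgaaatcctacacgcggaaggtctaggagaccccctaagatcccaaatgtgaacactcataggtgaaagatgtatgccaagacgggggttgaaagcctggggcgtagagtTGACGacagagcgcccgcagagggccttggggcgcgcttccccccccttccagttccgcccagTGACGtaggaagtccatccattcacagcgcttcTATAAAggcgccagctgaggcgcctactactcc
Fosb: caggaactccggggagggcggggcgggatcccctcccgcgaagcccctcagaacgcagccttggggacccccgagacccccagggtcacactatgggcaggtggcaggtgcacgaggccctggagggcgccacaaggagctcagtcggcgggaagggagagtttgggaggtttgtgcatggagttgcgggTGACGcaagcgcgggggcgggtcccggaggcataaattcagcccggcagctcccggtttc
Atf3: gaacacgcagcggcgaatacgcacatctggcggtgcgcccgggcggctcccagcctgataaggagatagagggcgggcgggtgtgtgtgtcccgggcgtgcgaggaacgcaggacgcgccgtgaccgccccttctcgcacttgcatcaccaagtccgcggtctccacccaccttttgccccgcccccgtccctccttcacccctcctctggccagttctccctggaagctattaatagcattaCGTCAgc

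Of the 10 genes, 7 had a promoter in the RefSeq table used here. The short site was in 5 of the 7, those of *Atf3*, *Fosb*, *Junb*, *Fos* and *Dusp1*, and in 17.8% of 32851 promoters. Windows of *Jun* and *Dusp6* did not hold these letters. The full site was in *Dusp1* only, beginning 143 bases before the start, and in 1.55% of promoters. The TATA box letters were in *Fos*, beginning 33 bases before the start, and in 7.59% of promoters. The AP-1 site TGANTCA on either strand was in 0 of the 7 and in 6.75% of promoters, and the CArG box, the site of serum response factor, was in 0 of the 7 and in 1.47%. These are matches of letters in a short window. The genes with the short site included both those with separate groups (*Fosb* and *Dusp1*) and those with overlapping groups (*Fos*, *Junb* and *Atf3*).

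Other immediate-early genes were examined as a list of 33, of which 28 passed the filter. Of the 28, 0 were called at the adjusted threshold, 3 were higher in ApcMin PCdel adenomas at the unadjusted threshold in limma's fit, and 0 were lower, against 2.70% and 0.681% of all genes. Those 3, *Ier3*, *Csrnp1* and *Nfkbiz*, were also the 3 with groups that did not overlap, all higher, against 6.00% of all genes. *Nfkbiz*, which encodes a nuclear regulator of NF-kappaB, was at 8.722, 4.680 and 6.892 FPKM in ApcMin and at 12.52, 11.04 and 10.22 FPKM in ApcMin PCdel libraries, a log2 fold change of 0.69 (SE 0.20). *Csrnp1* had a log2 fold change of 0.39 (SE 0.11) and *Ier3* one of 0.37 (SE 0.14). *Nfkbiz* and *Ier3* were highest in QC3, and *Csrnp1* in QC8. The 28 had a median log2 fold change of 0.16, with 25 estimates above 0. For this and the lists that follow, the same shares of all genes are the background of the counts.

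Further members of that list differed greatly between libraries of one genotype. *Sgk1*, a kinase induced by glucocorticoids and cell stress, was at 216.2 FPKM in QC6 against 39.4 to 74.9 FPKM in the other libraries. *Zfp36*, whose product destabilizes inflammatory mRNAs, was at 70.4 FPKM in QC10 against 22.8 to 39.3 FPKM elsewhere. *Jund*, the most abundant of that list, ranged only from 110.6 to 139.9 FPKM.

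Feedback and output genes of ERK signaling beyond *Dusp6* and *Spry4* gave 12 tested genes, with 0 calls at either threshold, 11 estimates above 0 and a median log2 fold change of 0.18. *Etv5*, a transcription factor induced by ERK, was at 24.9, 26.4 and 14.5 FPKM in ApcMin and at 26.1, 29.1 and 29.4 FPKM in ApcMin PCdel libraries, with QC6 the low value. *Phlda1* and *Ccnd1* were likewise lowest in QC6, at 37.4 and 36.2 FPKM, and *Spred2* had a log2 fold change of 0.27 (SE 0.13) with overlapping groups. Among 4 other MAP kinase phosphatases tested, *Dusp10*, which acts on JNK and p38, passed the unadjusted threshold, at 3.74, 3.44 and 2.32 FPKM in ApcMin and 4.45, 6.79 and 4.37 FPKM in ApcMin PCdel libraries, and its groups did not overlap. *Dusp7*, *Dusp8* and *Dusp16* had log2 fold changes of 0.15, 0.20 and -0.08. Like the 10 genes, these lists had their highest mean log2 deviation in QC8, at 0.23 for feedback and output genes and 0.34 for the phosphatases. The list of other immediate-early genes was highest in QC8 too, at 0.20.

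Components of the ERK pathway itself, from ligands to kinases, gave 23 tested genes, of which 1 was higher at the unadjusted threshold, 0 were lower and 18 had estimates above 0. That gene was *Ereg*, the EGF receptor ligand epiregulin, at 6.97, 7.60 and 8.66 FPKM in ApcMin and at 17.6, 22.5 and 9.33 FPKM in ApcMin PCdel libraries, a log2 fold change of 0.92 (SE 0.29) with groups that did not overlap. *Tgfa*, another ligand of the same receptor, was at 12.1, 12.9 and 9.66 FPKM in ApcMin and at 12.1, 2.73 and 2.09 FPKM in ApcMin PCdel libraries. Its 2 low libraries were QC8 and QC10, its log2 fold change was -1.23 (SE 0.52), and QC3 lay within the ApcMin range. The kinase genes *Mapk3* and *Map2k2* had log2 fold changes of 0.04 and -0.10. Of 13 genes for upstream regulators of immediate-early transcription, *Mapk9*, which encodes a JNK, passed the unadjusted threshold with a log2 fold change of 0.49 (SE 0.16), and *Creb1* had one of 0.53 (SE 0.22) with overlapping groups. *Mapk14* and *Mapkapk2*, of the p38 branch, had log2 fold changes of 0.37 and 0.0037.

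Lists that can respond to the treatment of tissue were set beside the 10 genes. Heat shock genes gave 14 tested, 0 calls at either threshold and 9 estimates above 0. Their highest library was QC3, with a mean log2 deviation of 0.50 against 0.02 in QC8, and their lowest were QC6 at -0.40 and QC10 at -0.35. *Hspa1a*, an inducible chaperone, was at 6.78, 7.94 and 3.05 FPKM in ApcMin and at 23.6, 6.60 and 2.62 FPKM in ApcMin PCdel libraries, and its near-identical copy *Hspa1b* may share its reads. *Hspa8*, the most abundant of that list, was at 1279 FPKM in QC3 and 718.8 FPKM in QC10, *Hsp90ab1* ranged from 562.0 to 811.6 FPKM, and *Hspb8* had a log2 fold change of 0.36 (SE 0.20). By list mean, heat shock genes were highest in QC3 and the 10 genes in QC8, as were the targets of ATF4 described next (0.20). The part of handling in any of these patterns was not tested.

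Hypoxia genes gave 12 tested and 0 calls at either threshold, with list means between -0.06 in QC6 and 0.08 in QC10. Of these, *Adm* was higher and *Ndrg1* lower in ApcMin PCdel adenomas without overlap, by 0.17 and -0.18 on the log2 scale; both were picked out for that after their values were seen. *Car9*, the most abundant, was at 95.04 FPKM in QC5 and 55.57 to 66.74 FPKM elsewhere, *Ddit4* ranged from 49.6 to 69.7 FPKM, and *Pfkfb3* had a log2 fold change of 0.49 (SE 0.30). Targets of the stress factor ATF4 gave 8 tested and 0 calls at either threshold, with a list mean of 0.20 in QC8 and -0.23 in QC6. *Atf4* itself ranged from 108.1 to 135.5 FPKM, *Asns* had a log2 fold change of -0.04, and *Psat1* one of 0.46 (SE 0.32). Circadian clock genes, which shift with the time of day of collection, gave 10 tested, 0 calls at either threshold and 6 estimates under 0. Their list mean was lowest in QC10 at -0.33, where *Dbp* was at 6.03 FPKM against 9.36 to 16.3 FPKM in the other libraries. *Ciart* was also lowest in QC10, at 1.03 FPKM against 2.17 to 3.14 FPKM elsewhere, as was *Nr1d2* at 10.6 FPKM against 14.3 to 16.3 FPKM. By contrast, *Arntl* and *Cry1* were highest in QC10, at 4.92 and 10.26 FPKM, so the list mean pools genes that moved in opposite directions. *Tef*, the most abundant, was lowest in QC4, at 16.4 FPKM.

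Markers of the cell types that whole adenomas can hold moved with the 10 genes in part. In whole adenoma RNA, a larger share of cells holding a transcript and more of it per cell cannot be told apart. All 6 smooth muscle markers had estimates above 0 and 0 passed either threshold. Their summed FPKM was 211.0, 345.7 and 327.9 in ApcMin and 348.5, 448.4 and 313.9 in ApcMin PCdel libraries, highest in QC8 and lowest in QC4. *Tagln*, the most abundant of them, was at 63.9 FPKM in QC4 and 115.8 FPKM in QC8, and 0 of the 6 markers were at 0 in any library. The contractile gene *Actg2* had a log2 fold change of 0.45 (SE 0.26) and *Des* one of 0.39 (SE 0.29), both with overlapping groups. With the mean level of this list as a covariate, the log2 fold change was 0.05 for *Fos*, 0.26 for *Egr1*, 0.17 for *Spry4* and 0.036 for *Ier2*, each lower than without it by over 1.5 times. It was 0.26 for *Jun*, 0.14 for *Junb*, 0.26 for *Dusp6*, 0.49 for *Fosb*, 0.56 for *Atf3* and 0.52 for *Dusp1*. The median of the 10 was 0.26 with it and 0.30 without. In that fit 1 of the 10 genes, *Dusp1*, was higher at the unadjusted threshold, against 2.38% of all genes higher and 0.948% lower. The same gene alone was so with the heat shock list as the covariate, against 2.99% and 0.948%, and with the enterocyte list, against 3.16% and 1.63%. The part of smooth muscle content in the differences was not tested beyond that fit.

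Some macrophage markers followed the genotypes more closely. All 6 macrophage markers had estimates above 0, and *Adgre1*, *C1qb* and *C1qc* passed the unadjusted threshold with groups that did not overlap. The groups of *C1qa*, *Csf1r* and *Cd68* overlapped, and *Cd68* had a log2 fold change of only 0.09 (SE 0.14). The sum of the list rested largely on *C1qa*, *C1qb* and *C1qc*. The summed FPKM was 100.6, 98.9 and 117.9 in ApcMin and 127.7, 144.7 and 125.3 in ApcMin PCdel libraries, with *C1qa* the most abundant and 0 markers at 0. All 6 fibroblast markers also had estimates above 0, with *Dcn* and *Pdgfra* past the unadjusted threshold, and their sum was highest in QC3 at 377.5 FPKM and 352.5 FPKM in QC8 against 185.3 to 276.7 FPKM elsewhere. Of 4 neutrophil markers tested, *Retnlg* passed the unadjusted threshold, at 4.13 to 5.13 FPKM in ApcMin and 7.18 to 9.40 FPKM in ApcMin PCdel adenomas, whereas *S100a8* was at most 5.87 FPKM and had overlapping groups. The neutrophil list had a mean log2 deviation of 0.59 in QC8, its highest library, and 0.53 in QC4. Tuft cell markers, with 4 of 4 estimates above 0, were also highest in QC8, at 0.66, where *Dclk1* was at 8.32 FPKM against 1.396 to 5.025 FPKM elsewhere. By the same mean, goblet cell markers at 0.38 and Wnt target genes at 0.22 were highest in QC8 as well. By summed FPKM, goblet cell markers were instead highest in QC5, at 6605 against 6002 FPKM in QC8. The sum of Wnt target genes was highest in QC10, at 376.9 against 351.8 FPKM in QC8. Among goblet cell markers, *Clca1* was at 702.8 FPKM in QC8 against 136.4 to 421.1 FPKM elsewhere, whereas *Tff3* was lowest in QC8. The part of these cell types in the levels of the 10 genes was not tested.

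The other marker lists had 0 genes past the unadjusted threshold apart from the Paneth cell list. The enterocyte markers had 7 of 7 estimates under 0, and their sum was highest in QC6, in which *Apoa4* was at 7440 FPKM against 1403 to 2436 FPKM elsewhere. Erythroid markers were also highest in QC6, with *Hbb-bs* at 646.3 FPKM against 66.5 FPKM in QC8, the lowest. Mast cell proteases were low in QC8 and QC10, with *Mcpt1* at 184.2 and 140.1 FPKM against 259.6 to 605.4 FPKM elsewhere. Erythroid markers had a median log2 fold change of -1.09, with 5 of 5 estimates under 0, mast cell markers one of -0.62, with 4 of 5 under 0, and enterocyte markers one of -0.20. Median log2 fold changes were 0.06 for 5 endothelial, 0.14 for 5 T cell, 0.04 for 4 B and plasma cell, 0.02 for 8 epithelial, -0.03 for 5 goblet cell, 0.05 for 4 enteroendocrine, 0.38 for 4 tuft cell and 0.18 for 8 Wnt target genes tested.

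**Figure D5:**
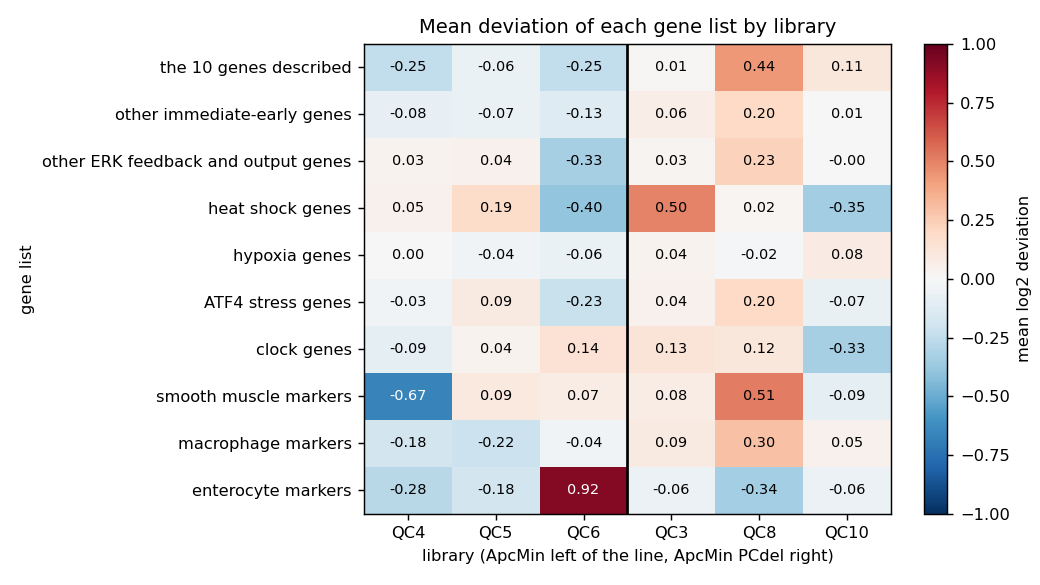
Mean log2 deviation of each gene list (rows) in each library (columns) from the 6-library mean, with red above and blue under it and the value printed in each cell. Of the lists drawn, the 10 genes are highest in QC8 (0.44), as are smooth muscle (0.51) and macrophage (0.30) markers. Other immediate-early genes (0.20), other ERK feedback and output genes (0.23) and ATF4 stress genes (0.20) are also highest in QC8. Heat shock genes are highest in QC3 (0.50) and enterocyte markers in QC6 (0.92).

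Among the genes whose levels across the 6 libraries were most like the mean of the 10 were *Zfp710* (Pearson's r 0.99), *Ncoa1* (0.98), *Wdr20* (0.98) and *Ap4e1* (0.98). Their differences between libraries were small, as *Ncoa1* ran from 4.600 FPKM in QC6 to 6.196 FPKM in QC8. The nearest to *Fos* were *Adnp* (0.99), the smooth muscle gene *Tagln* (0.98) and *Polr3gl* (0.98). *Daam1*, *Ppfia1* and *Plce1* were nearest to *Dusp6*, and *Gm8995*, *Trappc2* and the chemokine gene *Ccl17* to *Egr1*, with r between 0.988 and 0.998. With 6 points and 14240 genes to choose from, coefficients of this size are a description of pattern only.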

How the data were processed

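Adenoma RNA, 1 library per sample, was prepared with the TruSeq RNA kit, and the study's methods name CLC Genomics Workbench and a normalization in MatLab without settings. The authors deposited for each gene FPKM (scaled for length and library size), TPM (scaled to 1000000 per library) and read coverage, which was used here only for depth, from its ratio to FPKM. The program behind these values is not given in the sources used here, and gene positions match GRCm38. Separate entries of a gene were summed (*Junb* had an entry at 0). The 37 mitochondrially encoded genes were listed at 0 in every library, so their share was not used as a measure of RNA quality.

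Genotypes were compared on log2(FPKM + 1) by linear models in limma 3.58.1 (R 4.3.3), with moderated variances and a mean-variance trend, for genes whose mean FPKM was 1 or more, with Benjamini-Hochberg adjustment over all of them and a threshold of 0.05. This scale understates the change of low genes. An exact permutation test of the 6 libraries was added for each of the 10 genes, and the fit was tested on simulated data. No label states that libraries of a group came from separate animals, so p-values measure the spread between these samples. FPKM give no counts, so no counting intervals were derived. Alternatives changed the pseudocount, filter, scaling, unit, trend, weights or covariate, or left out a library.

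The 10 genes and all lists were chosen with earlier results of these data known. Genes named from each other list were drawn from its 2 most abundant, its 2 with the largest fold changes and those past the unadjusted threshold, and some marker lists are given by their medians only. Outside this rule, *Adm* and *Ndrg1* were named for groups that did not overlap and *Hspa1b* as a near-identical copy. *Ang4*, *Mmp7*, *Arntl* and *Cry1* were named because they departed from the other genes named from their lists. *Csf1r* and *Cd68* were named as macrophage markers with overlapping groups. Named for likeness were the 5 genes nearest to the mean of the 10 and the 3 nearest to *Fos*, *Dusp6* and *Egr1*, of which 1 gene is not reported here. RefSeq promoters came from a table of GRCm38.p6.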

Additional observations from a re-analysis of the deposited data

How the results depend on the processing

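Over 17 alternatives, the 10 genes gave 167 log2 fold changes, of which 0 had an adjusted p under 0.05 in limma's fit and 1 changed sign, that of *Ier2*, at -0.023 with array quality weights. Their median log2 fold change, 0.30, ran from 0.21 without QC8 to 0.38 without QC5. *Dusp1* was under the unadjusted threshold of 0.05 in all 17 alternatives, and *Fosb* and *Egr1* each in 6 of 16. With all libraries 3 of the 10 genes were so, against 2.70% of all genes higher. That count became 1 of 10 with quantile normalization (1.83%), with median centring (1.95%), or with the heat shock (2.99%), smooth muscle (2.38%) or enterocyte (3.16%) list as a covariate. It was 2 of 10 with array quality weights (5.66%) or with no filter on low values (2.66%). With 1 library left out it ran from 1, as without QC4 (2.96%), to 4 without QC10 (3.47%), where *Spry4* passed as well. The number of genes whose groups did not overlap, 4 of 10, was 2 of 7 where the mean FPKM had to reach 5, which left out *Fosb*, *Egr1* and *Spry4*, against 4.72% of all genes higher, and 4 to 8 of 10 when 1 library was left out, against 9.34% to 15.7%. It was 8 without QC5, against 11.1%.

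Of all genes tested, 2 were called with all libraries, 1 with no filter on low values, with median centring or with the smooth muscle covariate, and 1 to 5 when 1 library was left out. The count at the unadjusted threshold, 481, was 976 without a filter, 260 where the mean FPKM had to reach 5, 1270 when the libraries were weighted by quality, and 358 (without QC8) to 820 (without QC6) when 1 library was left out. Of the 481, 79.8% were higher in ApcMin PCdel adenomas, against 88.0% with TPM, 63.5% with quality weights, 61.4% with median centring and 58.9% with quantile normalization. The background of genes higher without overlap, 6.00%, was then 3.74%, 3.93% and 9.22% with quantile normalization, median centring and TPM, while the 10 genes kept 4 in each. QC8 stayed the library with the highest mean of the 10 under each scaling. No paired analysis was possible because the sample labels used here do not link a library of one group to one of the other. Arms left with 2 libraries shared the spread of the other group.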
